A study of Homo sapiens with 6 samples.

Results

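The genes described here are those of cholesterol synthesis and of its control by the SREBP transcription factors, 34 genes in all, measured in CaSki cells treated with calcitriol or with vehicle. CaSki is an established line from a human cervical carcinoma that carries HPV16, and calcitriol is the hormonal form of vitamin D. The members were taken by gene symbol: a feature of the array stands for a gene if it names that gene alone, and the brightest such feature was used. In this way 32 of the 34 genes were measured, out of 33616 genes with a feature of their own. *FDFT1* and *NPC2* had no such feature and were not analysed here. Both groups were grown in the same medium with charcoal-stripped serum and received either 10 nM calcitriol or 0.1% ethanol for 24 h. The 6 arrays, of the Clariom D type, took 1 RNA pool each, 3 per group, and every pool mixed replicates from each of the independent experiments, so the spread between pools may be largely technical. The cells come from a single line, and in bulk RNA fewer transcripts per cell and fewer expressing cells cannot be told apart. Signals are the authors' log2 values, and differences are log2 fold changes, calcitriol minus vehicle.

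Cholesterol is built from acetyl-CoA through mevalonate, isoprenoids and squalene, and the cell adjusts the pathway to its sterol content. The precursors of the SREBP factors, encoded by *SREBF1* and *SREBF2*, sit in the endoplasmic reticulum bound to the escort protein SCAP. When membranes are rich in cholesterol, INSIG proteins retain this complex, and when sterols fall, SCAP carries the precursor to the Golgi, where proteases release the part that enters the nucleus and switches on the genes of synthesis. *INSIG1* is itself a target of the factors and closes the loop. Sterol excess works the other way through the LXR receptors, which switch on the exporters *ABCA1* and *ABCG1*. The pathway meets vitamin D at its last step, since 7-dehydrocholesterol, the substrate of DHCR7, is also the molecule from which skin makes vitamin D.

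Promoters of 4 members are printed to show the elements through which sterols are known to act and to set the gene that differed most clearly beside 3 that sense or obey sterols. They are *SREBF2*, which encodes the main activator of the pathway, the feedback gene *INSIG1*, *HMGCS1* of the early steps of synthesis (the first of its 2 listed promoters), and *NPC1*, the exporter of lysosomal cholesterol. Each is the stretch of 250 bases before the start of the gene, 5′ to 3′ on the strand of the gene, from RefSeq (29 of the 34 members had a promoter in that table). Capitals mark, on either strand, the sterol regulatory element TCACNCCAC, the CCAAT box CCAAT, the GC box GGGCGG and the E-box CACGTG.
SREBF2, GRCh38.p14, chr22:41832855-41833104, plus strand: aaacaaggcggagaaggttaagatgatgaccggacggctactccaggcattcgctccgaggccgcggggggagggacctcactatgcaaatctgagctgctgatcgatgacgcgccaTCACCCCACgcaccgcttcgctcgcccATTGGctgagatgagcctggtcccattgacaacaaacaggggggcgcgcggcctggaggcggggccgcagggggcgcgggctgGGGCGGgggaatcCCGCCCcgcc
INSIG1, GRCh38.p14, chr7:155297628-155297877, plus strand: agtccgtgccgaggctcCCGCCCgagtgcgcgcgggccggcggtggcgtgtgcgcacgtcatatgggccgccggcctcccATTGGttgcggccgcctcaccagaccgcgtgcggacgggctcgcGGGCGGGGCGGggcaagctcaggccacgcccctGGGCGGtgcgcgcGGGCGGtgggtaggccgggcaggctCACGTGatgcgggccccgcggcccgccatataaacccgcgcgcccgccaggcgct
HMGCS1, GRCh38.p14, chr5:43313413-43313662, minus strand: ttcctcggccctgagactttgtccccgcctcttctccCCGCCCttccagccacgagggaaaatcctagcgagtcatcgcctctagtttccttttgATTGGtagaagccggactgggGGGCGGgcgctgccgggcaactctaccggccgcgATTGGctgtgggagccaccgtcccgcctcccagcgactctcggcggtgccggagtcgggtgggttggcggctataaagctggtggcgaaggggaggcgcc
NPC1, GRCh38.p14, chr18:23586507-23586756, minus strand: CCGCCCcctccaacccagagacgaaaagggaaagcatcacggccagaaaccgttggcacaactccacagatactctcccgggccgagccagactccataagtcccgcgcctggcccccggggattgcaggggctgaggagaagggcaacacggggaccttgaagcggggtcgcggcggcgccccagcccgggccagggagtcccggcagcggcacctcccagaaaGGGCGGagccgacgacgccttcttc
The sterol regulatory element, as an exact match, was found in *SREBF2* alone among the 29 members searched, from 133 to 125 bases before the start. It was found in 0.883% of all 35116 promoters of that length. The 5 members without a promoter in the table, *SQLE* and *FASN* among them, were not searched. A CCAAT box, the site of a factor with which SREBP proteins are known to cooperate, was found in 21 of the 29 members, *SREBF2*, *INSIG1* and *HMGCS1* among them. In *HMGCS1* it occurred at 2 places, ending 151 and 96 bases before the start. Counted by promoter, it was in 61% of the 41 promoters listed for the members and in 32% of all. *NPC1* had no CCAAT box in this stretch and held 2 GC boxes, a motif found in 28 of the 29 members, in 90.2% of their promoters and in 42.6% of all. The E-box in *INSIG1* began 55 bases before the start, and 6.34% of all promoters held one. The GC boxes of *INSIG1* that begin 126 and 121 bases before the start overlap by 1 base. These are matches of letters and were not tested as sites.

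The treatment and the cell type were checked first. *CYP24A1*, which inactivates calcitriol and is its best known target, was at 4.99 ± 0.74 in the vehicle group and 12.59 ± 0.82 with calcitriol (n = 3 per group, mean ± SD), the only feature of 138745 past an adjusted p of 0.05 in limma. All 6 measured markers of epithelial cells, the keratins *KRT5*, *KRT8*, *KRT18* and *KRT19* with *EPCAM* and *CDH1*, lay above the negative-control level, a signal of 6.32, as did 2 of 5 of fibroblasts (*COL1A1* and *COL1A2*), 0 of 4 of leukocytes and 0 of 3 of endothelium. Of these only *KRT5* is typical of squamous cells. *KRT18* had a difference of -0.56 with a standard error (SE) of 0.24. The 8 exogenous control RNAs, which do not come from the cells, averaged 0.34 lower on the calcitriol arrays. They ran from 0.13 lower for cre to 0.63 lower for lys. The means of lys, 4.58 in vehicle and 3.95 in calcitriol, lay below the negative-control level, and the groups of phe, thr and cre overlapped. The direction of small differences therefore depends on how the arrays are scaled. The part of these RNAs in the results was not tested.

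Of the 32 measured genes, 0 passed an adjusted p of 0.05 over all features (background 0.00569% of protein-coding genes), and 1, *NPC1*, was lower by 1.5-fold or more with an unadjusted p under 0.05 (background 2.87% of protein-coding genes). No member was higher by that rule (background 0.353%). The median log2 fold change of the members was -0.09 (-0.15 to -0.03 with 1 array left out), that of all 17579 protein-coding genes was -0.09, and that of the 8229 coding genes above the negative controls was -0.16. The values of 25 members spread more widely among the 3 vehicle pools than the groups differed. For 17 of the 32 the 95% interval of the log2 fold change, without adjustment, lay within a fold of 1.5 in either direction, which was so for 37% of coding genes. That count rests on the scaling and on the number of arrays: it was 4 with the arrays centred on the exogenous RNAs, where 12.8% of coding genes had such an interval, and 5 (without vehicle replicate 3) to 12 with 1 array left out. In the plot of signals by pool the calcitriol and vehicle points of 28 genes overlap.

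**Figure D1:**
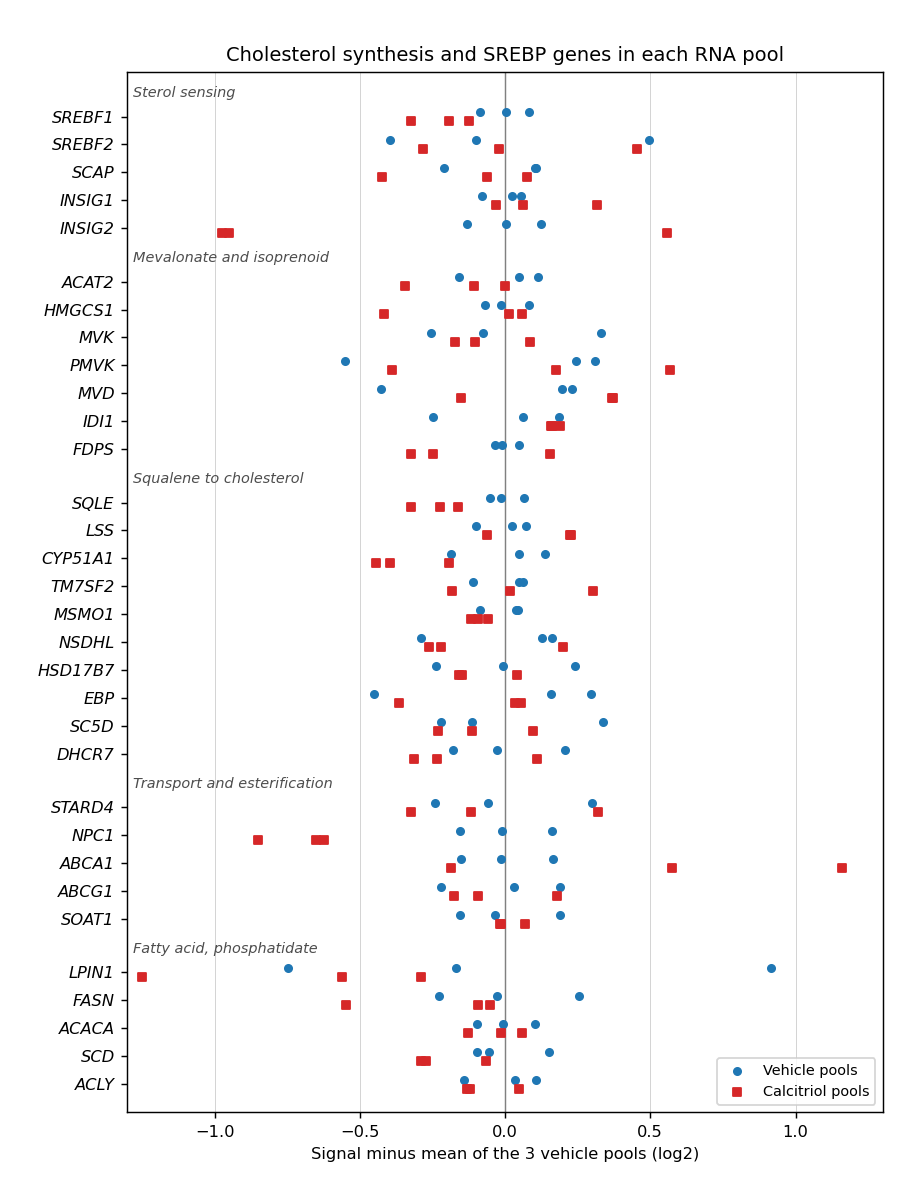
Signal of each measured gene in each RNA pool on the x axis, as the log2 difference from the mean of the 3 vehicle pools, with genes on the y axis grouped by role. Circles are vehicle pools and squares calcitriol pools; *NPC1*, *SREBF1*, *SQLE* and *CYP51A1* are the 4 genes in which all squares lie below all circles, and *INSIG2*, *ABCA1* and *LPIN1* have the widest scatter.

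*NPC1*, which encodes the membrane protein that moves cholesterol out of lysosomes, differed most clearly. Its signals were 11.59, 11.76 and 11.44 in the vehicle pools and 10.95, 10.98 and 10.75 in the calcitriol pools. All calcitriol pools lay below all vehicle pools, with a gap between the groups larger than the range within either. The difference was -0.71 (SE 0.18, 95% interval -1.11 to -0.31), a 1.63-fold difference, with an unadjusted p of 0.00333 and an adjusted p of 0.915 in limma. Its log2 fold change lay between -0.78 and -0.63 whichever array was left out, and the unadjusted p stayed under 0.05 each time. With the arrays centred on the exogenous RNAs it was -0.36 (unadjusted p = 0.0960), and after quantile normalization or centring on the coding genes it was -0.57, under the fold of 1.5. The groups stayed apart in these 3 settings. Over all settings its adjusted p lay between 0.290 and 0.994.

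Among the genes of sterol sensing, both activators and their escort had small differences. *SREBF2* had signals of 10.17, 10.77 and 9.88 in vehicle and 10.25, 10.73 and 9.99 in calcitriol. The groups overlapped almost fully, and the difference of 0.05 (SE 0.28, 95% interval -0.59 to 0.69) was far smaller than the range of the pools within either group. *SREBF1*, whose products favour the genes of fatty acid synthesis, had 8.02, 8.09 and 7.92 in vehicle and 7.69, 7.89 and 7.82 in calcitriol. All calcitriol pools lay lower, by a narrow margin, and the difference was -0.21 (SE 0.16, adjusted p = 0.931). *SCAP* had a difference of -0.14 (SE 0.20) on its brightest feature and -0.11 on its other.

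The retention proteins had values of opposite sign. *INSIG1* had 11.21, 11.34 and 11.31 in vehicle and 11.35, 11.60 and 11.26 in calcitriol. Of the calcitriol pools, 1 lay inside the vehicle range and 2 above it, and the difference was 0.12 (SE 0.17, 95% interval -0.28 to 0.51). *INSIG2*, which is not a target of the SREBP factors but has a similar role, had 9.30, 9.16 and 9.42 in vehicle and 8.32, 9.85 and 8.34 in calcitriol. Here 2 calcitriol pools lay about 1 unit below the vehicle pools and the third lay above them, so that the difference of -0.46 (SE 0.38, adjusted p = 0.936) was not distinguishable from the spread. Without calcitriol replicate 2 it was -0.96 (unadjusted p = 0.00133, adjusted p = 0.759), and without calcitriol replicate 1 or 3 it was -0.20 or -0.21. Its adjusted p ranged from 0.759 to 0.999 over the settings. The difference between *INSIG1* and *INSIG2* was not tested.

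**Figure D2:**
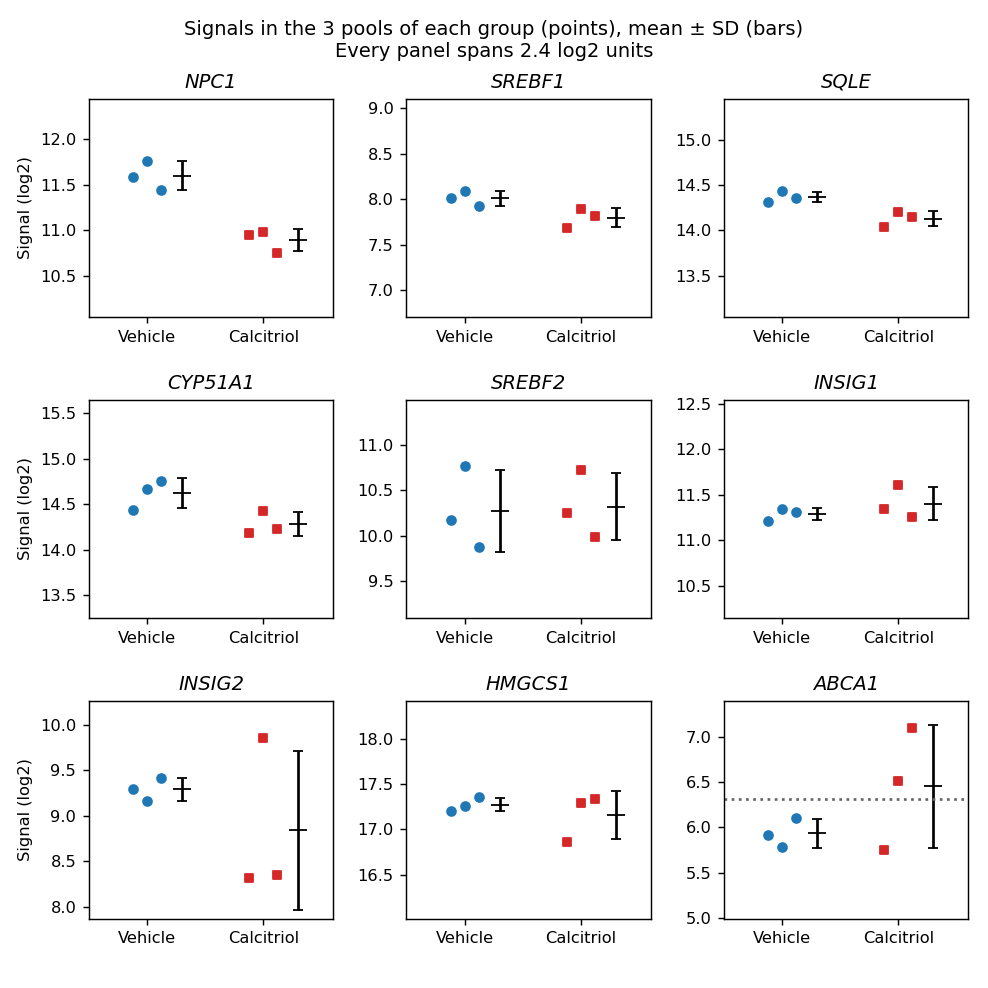
log2 signal on the y axis of 9 genes in the 3 vehicle pools (circles) and 3 calcitriol pools (squares), with the mean and SD of each group as bars and every panel spanning the same range. *NPC1* shows separate groups, the groups of *SREBF2* lie on each other, 1 calcitriol pool of *INSIG2* stands apart from the other 2, and the dotted line in the panel of *ABCA1* is the negative-control level, 6.32.

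The enzymes of synthesis had small differences on the signals as deposited. Of 18 listed enzymes from acetyl-CoA to cholesterol, 17 were measured, and their log2 fold changes ran from -0.34 to 0.20 with a median of -0.09. The difference was negative for 12 and positive for 5, a split that turned with the scaling as described further on. It was negative for 66.9% of coding genes and for 78% of those above the negative controls. As deposited, 0 of the enzymes had an unadjusted p under 0.05, where 5.68% of coding genes were lower and 0.762% higher by that rule. Centred on the exogenous RNAs, *MVD*, *IDI1* and *LSS* were higher by it, as were 11.1% of coding genes. For 11 of the 17 the 95% interval as deposited lay within a fold of 1.5, which was so for 37% of coding genes and 31.7% of those above the negative controls. Over all 17 the bounds reached from -0.75 (*CYP51A1*) to 0.83 (*PMVK*).

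In the first part of the pathway, *HMGCS1*, which makes the precursor of mevalonate, had 17.21, 17.26 and 17.36 in vehicle and 16.86, 17.29 and 17.33 in calcitriol. Only 1 calcitriol pool lay outside the vehicle range, and the difference was -0.11 (SE 0.19, 95% interval -0.55 to 0.32). *IDI1*, the isomerase of the isoprenoid units, had 14.22, 14.65 and 14.53 in vehicle and 14.65, 14.62 and 14.63 in calcitriol, a difference of 0.17 (SE 0.18). The calcitriol pools were almost equal and sat at the upper end of the vehicle range. *MVD*, a decarboxylase of the mevalonate branch, had the highest value of these 7 genes, 0.20 (SE 0.25), with signals of 8.99, 9.03 and 8.37 in vehicle and 9.17, 9.17 and 8.65 in calcitriol. Its groups overlapped through the lowest calcitriol pool. The kinase genes *MVK* (-0.06, SE 0.20) and *PMVK* (0.12, SE 0.31), the thiolase gene *ACAT2* (-0.15, SE 0.18) and *FDPS* (-0.14, SE 0.19), which makes farnesyl diphosphate, also had overlapping groups.

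In the second part, from squalene to cholesterol, 8 of 10 measured genes had a negative difference as deposited. So had 66.9% of all coding genes and 78% of those above the negative controls, where all 10 lay. The median of the 10 was -0.09 as deposited and 0.25 when the arrays were centred on the exogenous RNAs. *SQLE*, which encodes squalene epoxidase, a rate-limiting enzyme, had 14.32, 14.43 and 14.35 in vehicle and 14.04, 14.21 and 14.14 in calcitriol. The groups did not overlap, and the difference was -0.24 (SE 0.16, adjusted p = 0.922). *CYP51A1*, the sterol demethylase, had 14.43, 14.67 and 14.76 in vehicle and 14.18, 14.43 and 14.23 in calcitriol. The highest calcitriol pool lay just under the lowest vehicle pool, and the difference was -0.34 (SE 0.18, 95% interval -0.75 to 0.06, adjusted p = 0.915). With *NPC1* and *SREBF1* these are the 4 members whose groups did not overlap with calcitriol lower, or 12.5%. The background was 11.2% of coding genes and 15.5% of those above the negative controls. No member was separated in the other direction, where the backgrounds were 2.49% and 1.11%. With the arrays centred on the exogenous RNAs 1 member was separated lower (*NPC1*) and 10 higher, where 0.967% and 26.1% of coding genes were. By the ordinary variance of each feature all 4 had an unadjusted p under 0.05, and the lowest adjusted p was then 0.953. These 4 were picked by their separate groups, which favours a low p by that variance, so it adds no support. The share of coding genes was not computed for that variance.

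The remaining steps held still smaller differences. *LSS*, which closes the sterol rings, had 0.13 (SE 0.17) and *TM7SF2*, a sterol reductase, 0.05 (SE 0.19). *MSMO1*, *NSDHL* and *HSD17B7*, whose enzymes together strip methyl groups from the ring, had -0.09 each (SEs 0.16, 0.21 and 0.19). *EBP*, the sterol isomerase, had -0.09 (SE 0.24) and *SC5D*, the desaturase that precedes the last step, -0.08 (SE 0.21). *DHCR7*, which turns 7-dehydrocholesterol into cholesterol, had 15.95, 16.18 and 15.80 in vehicle and 15.67, 16.09 and 15.74 in calcitriol. Its groups overlapped, with 2 calcitriol pools just under the vehicle range, and the difference was -0.15 (SE 0.20, 95% interval -0.59 to 0.30). *MSMO1* came closest to the ceiling of the arrays, 19.93, with a highest signal of 19.05, and 0 members reached it. RefSeq lists pseudogenes named after *FDPS*, *CYP51A1*, *IDI1*, *HSD17B7* and *SCD*, and whether their features also respond to such copies was not tested.

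**Figure D3:**
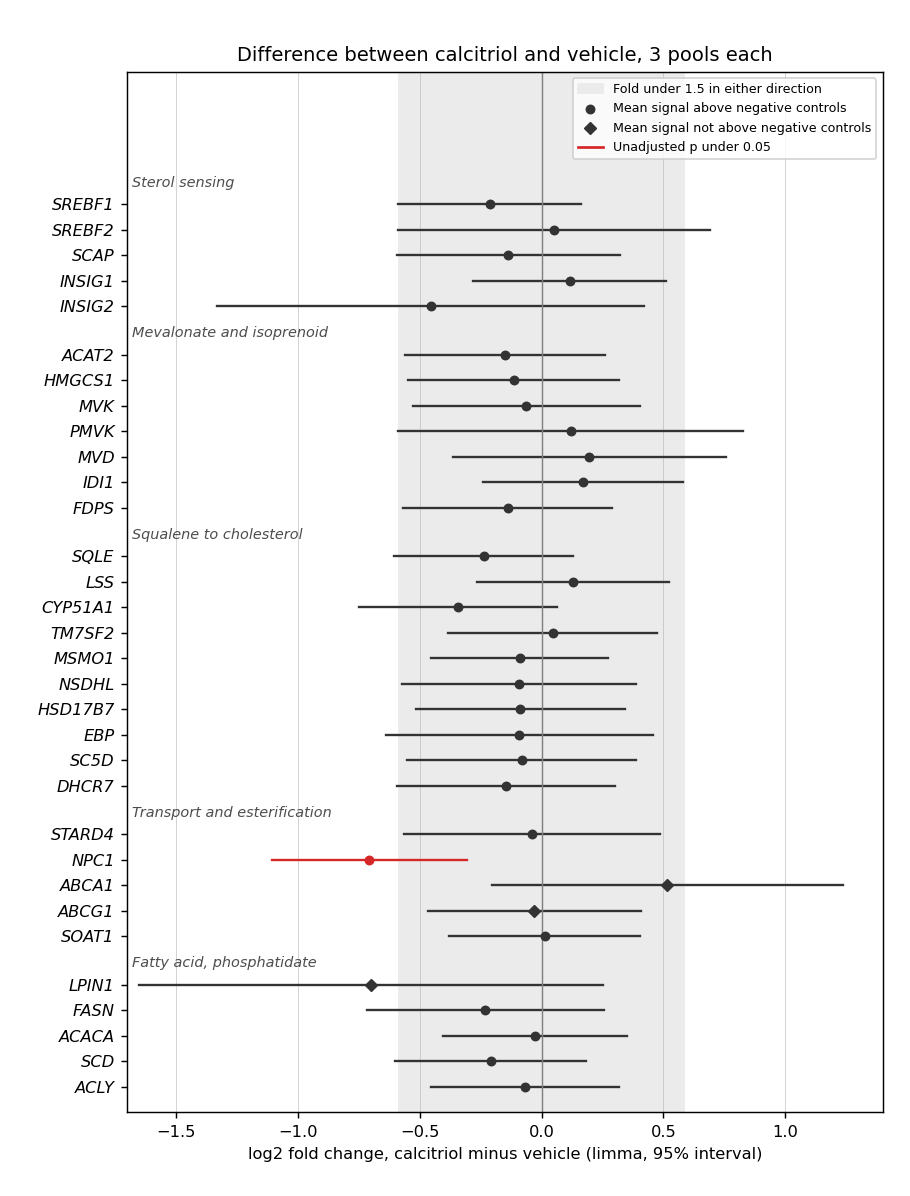
log2 fold change between calcitriol and vehicle on the x axis with its 95% interval from limma for each measured gene on the y axis, grouped by role, with the grey band marking a fold under 1.5 in either direction. *NPC1* (red) is the gene whose interval lies wholly below 0, and 17 of the 32 intervals stay inside the band; diamonds mark the 3 genes whose mean signal was not above the negative controls.

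Among the other genes of sterol transport, the exporter *ABCA1* had the highest log2 fold change of all members, 0.52 (SE 0.32, 95% interval -0.20 to 1.24, adjusted p = 0.919). Its signals were 5.92, 5.79 and 6.10 in vehicle and 5.75, 6.51 and 7.10 in calcitriol. The vehicle pools all lay below that of the negative controls, and the calcitriol pools ran from below the lowest of them to above that level. Without calcitriol replicate 1 the difference was 0.87 (unadjusted p = 0.00804, adjusted p = 0.994), and without calcitriol replicate 3 it was 0.19. *ABCG1*, the partner exporter, stayed below the negative controls in every pool, between 2.98 and 3.39, and no difference was detectable there (-0.03, SE 0.19). *SOAT1*, which esterifies cholesterol for storage, had 0.01 (SE 0.17, 95% interval -0.38 to 0.41), and *STARD4*, which carries sterols between membranes, had -0.04 (SE 0.23).

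The 5 genes of fatty acid and phosphatidate synthesis all had negative values as deposited, with a median log2 fold change of -0.21. Values were negative for 66.9% of coding genes and for 78% of those above the negative controls. With the arrays centred on the exogenous RNAs only *LPIN1* was negative and the median was 0.13. *SCD*, the stearoyl-CoA desaturase gene, had 17.08, 17.33 and 17.12 in vehicle and 16.89, 17.11 and 16.90 in calcitriol, which gives -0.21 (SE 0.17). A single calcitriol pool reached into the vehicle range. *FASN*, the fatty acid synthase gene, had -0.23 (SE 0.21), *ACLY*, which supplies cytosolic acetyl-CoA, -0.07 (SE 0.17) and *ACACA*, which makes malonyl-CoA, -0.03 (SE 0.17). *LPIN1*, the phosphatidate phosphatase gene, had a difference of -0.70 (SE 0.42, adjusted p = 0.919), close to that of *NPC1* in size but not in spread. Its signals, 5.83, 4.17 and 4.75 in vehicle and 4.62, 4.35 and 3.67 in calcitriol, all lay below that of the negative controls, and the groups overlapped. Without vehicle replicate 2 it was -1.07 (unadjusted p = 0.0277, adjusted p = 0.937), without calcitriol replicate 3 it was -0.43 and without vehicle replicate 1 it was -0.24.

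A second list held 22 further genes of lipid synthesis, sterol regulation and transport, of which 17 were measured. Their median log2 fold change was -0.18, beside -0.09 for all coding genes and -0.16 for those above the negative controls. Of the list, 0 passed an adjusted p of 0.05. As deposited, the difference was negative for 14, as it was for 66.9% of coding genes and 78% of those above the negative controls. Other scalings were not run for this list. At an unadjusted p under 0.05, 1 was lower and 0 were higher, against 5.68% and 0.762% of coding genes. The lower one was *ACAT1*, the mitochondrial thiolase of ketone body metabolism, with 7.71, 7.88 and 7.90 in vehicle and 7.36, 7.67 and 6.97 in calcitriol (difference -0.49, SE 0.21, adjusted p = 0.915). It was the only gene of the list whose calcitriol pools all lay below the vehicle pools, which was so for 11.2% of coding genes. *LIPA*, the lysosomal acid lipase gene, whose product frees the cholesterol that NPC1 exports, had 11.70, 11.69 and 11.65 in vehicle and 11.77, 11.90 and 11.85 in calcitriol. It alone of this list had all calcitriol pools above the vehicle pools, as had 2.49% of coding genes, and the difference was 0.16 (SE 0.16, adjusted p = 0.946). *MBTPS1*, a protease that cleaves the SREBP precursors, had 0.09 (SE 0.19). *NR1H3*, which encodes an LXR receptor and lay below the negative controls, had 0.00 (SE 0.20). Both were chosen for their role after their values were seen. The lowest difference of the list was that of *GGPS1*, -0.55 (SE 0.28, adjusted p = 0.915 in limma), with overlapping groups.

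The sign of the small differences turned with the scaling. As deposited, 23 members had a negative and 9 a positive log2 fold change, after quantile normalization 15 and 17, with the arrays centred on the coding genes 11 and 21, and centred on the exogenous RNAs 4 and 28. The median of the members moved from -0.09 to 0.04, 0.05 and 0.25 in these settings, while that of all features moved from 0.00 to 0.00, 0.14 and 0.34. Centring adds the same amount to every gene, so that the order of the genes is unchanged by it, and *NPC1* was the lowest member as deposited and under both centrings. Under quantile normalization *LPIN1* lay lower. Centred on the exogenous RNAs, 5 members had an unadjusted p under 0.05 and were higher, *ABCA1* (0.86), *MVD* (0.54), *IDI1* (0.51), *LSS* (0.47) and *INSIG1* (0.46), with adjusted p between 0.223 and 0.243. By the same rule and scaling 11.1% of coding genes were higher.

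**Figure D4:**
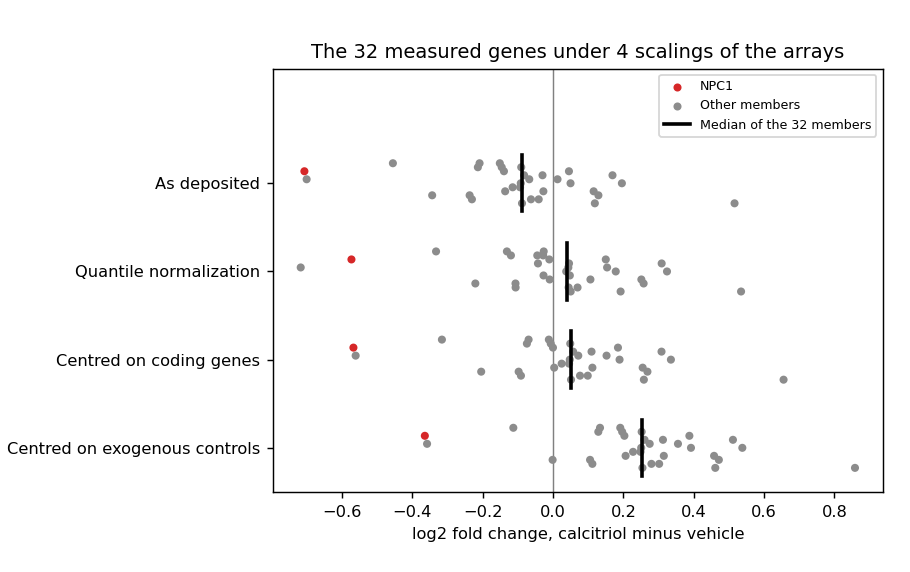
log2 fold change of the 32 measured genes on the x axis under 4 scalings of the arrays on the y axis, each point a gene and the bar their median. The median lies at -0.09 as deposited and at 0.25 with the arrays centred on the exogenous RNAs, and *NPC1* (red) is below 0 in all 4.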

How the data were processed

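Total RNA of 3 vehicle and 3 calcitriol pools had been hybridized to Clariom D arrays. Background correction and normalization were done by the authors in Transcriptome Analysis Console, and the deposited values are log2 signals, 1 per feature and array. The sources used here do not name the algorithm or the annotation. Signals were used as deposited. Genes were assigned through the annotation of the platform, in which 36176 of 138745 features named 1 gene.

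A linear model with moderated variances was fitted on all features (limma 3.58.1 under R 4.3.3), and two-sided p-values were adjusted by Benjamini-Hochberg over all of them. With 3 pools in each group the smallest p of an exact permutation is 0.1, so none was run. For the negative controls, the 95th percentile over their 612 features was taken as the level. Intervals are 95% intervals. The number of arrays limits the precision. A p-value here sets the group difference against the spread between pools. As every pool mixed the independent experiments, that spread may leave out the variation between experiments. The fit was also run on simulated data with independent noise for each feature and no shift between arrays, which cannot bear on the scaling. Motifs were searched in RefSeq promoters (GRCh38.p14).

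The members and lists were chosen with earlier results of these data known. All members were named, those with an unadjusted p under 0.05 or groups that did not overlap with the value of every pool, and further members with pool values were chosen after their values were seen. Of the second list and the cell type markers, genes without a feature of their own were not analysed here. Alternatives were other scalings, variance models, filters, averages and thresholds, the replicate number as a block, and each array left out in turn. The count of intervals within a fold of 1.5 was added after the data were seen.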

Additional observations from a re-analysis of the deposited data

How the results depend on the processing

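No member passed an adjusted p of 0.05 in limma under any alternative, and the lowest adjusted p of any member was 0.223, under exogenous centring. Leaving out arrays, in turn, gave 1 to 2 members lower and 0 to 1 higher by fold and unadjusted p, 1 to 2 and 0 to 1 by unadjusted p alone, 4 to 9 (without calcitriol replicate 2; 7 without vehicle replicate 1 or 3) separated lower and 0 to 3 (without calcitriol replicate 3) higher, and 5 to 12 intervals within a fold of 1.5, a count that every omission but that of calcitriol replicate 1 moved by over 1.5 times. The share of coding genes was not computed for these fits, and groups separate more easily with fewer pools, so the counts are not results about the members. With an array left out, the median of the members lay between -0.15 and -0.030. That of the sensing genes lay between -0.24 and 0.0073 and that of the mevalonate genes between -0.14 and 0.10. The median of squalene to cholesterol lay between -0.22 and -0.037, of transport between -0.070 and 0.11 and of fatty acid synthesis between -0.28 and -0.072. The sign turned in at least 1 such fit for *SREBF2* (-0.15 to 0.30), *SCAP* (-0.24 to 0.0073), *HMGCS1* (-0.20 to 0.036), *MVK* (-0.19 to 0.10), *PMVK* (-0.16 to 0.37), *MVD* (-0.018 to 0.37), *TM7SF2* (-0.083 to 0.16), *HSD17B7* (-0.21 to 0.033), *EBP* (-0.32 to 0.056), *SC5D* (-0.19 to 0.086), *STARD4* (-0.22 to 0.11), *ABCG1* (-0.14 to 0.065), *SOAT1* (-0.065 to 0.11) and *ACACA* (-0.076 to 0.024).

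Quantile normalization gave 0 members lower by fold and unadjusted p and 2 separated in each direction. By that scaling 8.2% of coding genes were separated lower and 3.07% higher. The median was 0.041 for the members and 0.042 for squalene to cholesterol. Quantile normalization turned *MVK* (0.070), *NSDHL* (0.048), *HSD17B7* (0.050), *EBP* (0.038), *SC5D* (0.045), *STARD4* (0.044), *ACACA* (0.11) and *ACLY* (0.044). Centring on the coding genes gave 0 and again 2 in each direction, where 4.68% of coding genes were separated lower and 8.58% higher. The medians were 0.050 for the members, 0.048 for squalene to cholesterol, 0.11 for transport and -0.069 for fatty acid synthesis. This centring turned *SCAP* (0.0033), *HMGCS1* (0.025), *MVK* (0.077), *MSMO1* (0.049), *NSDHL* (0.046), *HSD17B7* (0.051), *EBP* (0.048), *SC5D* (0.057), *STARD4* (0.099), *ABCG1* (0.11), *ACACA* (0.11) and *ACLY* (0.072). Centring on the exogenous controls gave 0 lower and 1 higher by fold and unadjusted p, 0 and 5 by unadjusted p alone, 1 and 10 separated and 4 intervals within a fold of 1.5. The share of coding genes by fold and unadjusted p was not computed for any of these scalings, so those counts are not results about the members. Of coding genes 0.398% were lower and 11.1% higher by unadjusted p alone. Separated were 0.967% lower and 26.1% higher, and 12.8% had an interval within a fold of 1.5. The medians were then 0.25 for the members, 0.21 for sensing, 0.28 for mevalonate, 0.25 for squalene to cholesterol, 0.31 for transport and 0.13 for fatty acid synthesis. It turned *SREBF1* (0.13), *SCAP* (0.21), *ACAT2* (0.19), *HMGCS1* (0.23), *MVK* (0.28), *FDPS* (0.20), *SQLE* (0.11), *MSMO1* (0.25), *NSDHL* (0.25), *HSD17B7* (0.25), *EBP* (0.25), *SC5D* (0.26), *DHCR7* (0.20), *STARD4* (0.30), *ABCG1* (0.31), *FASN* (0.11), *ACACA* (0.32), *SCD* (0.13) and *ACLY* (0.27). Under both centrings the turns follow from the shift added to every gene, and for quantile normalization the cause was not tested.

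A variance trend with robust fitting gave 2 members lower at an unadjusted p under 0.05, and ordinary variances gave 4. The share of coding genes was not computed for either. Averaging pools by Tukey's biweight gave a median of -0.16 for squalene to cholesterol and turned *HMGCS1* (0.040), *PMVK* (-0.14), *TM7SF2* (-0.019), *SC5D* (0.053) and *SOAT1* (-0.0019), and the cause was not tested. A filter on dim features, the mean of all features of a gene and a fold of 1.2 turned no sign and moved no count by over 1.5 times.

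Same-numbered pools deviated together only weakly (r = 0.019, 0.034 and 0.037 over all features, each the highest for its pool, 0.100, 0.072 and 0.033 over coding genes and 0.32, -0.07 and 0.39 over the members). Over all features none exceeded 0.1, so the numbers were not used as pairs. A replicate block left 0 members past an adjusted p of 0.05, 1 lower at an unadjusted p under 0.05 (*NPC1*), 4 separated lower and 18 intervals within a fold of 1.5. With the block, 5.44% of coding genes were lower at an unadjusted p under 0.05, and 32.3% had an interval within that fold. Separation does not depend on the block, and 11.2% of coding genes were separated lower. The intervals of *SREBF2*, *PMVK*, *SCAP* and *DHCR7* came to lie within that fold, and those of *FDPS*, *STARD4* and *IDI1* no longer did. No call by p or by separation changed among the members. *ACAT1* of the second list was then no longer under 0.05.

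With 3 pools per group, the 95% intervals in the report give the differences the arrays leave possible, and signals of *LPIN1*, *ABCA1* and *ABCG1* did not exceed the negative controls on average.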
